A study of Mus musculus with 12 samples.

Results

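The negative-feedback arm of the ERK pathway was followed through 10 genes: the MAP kinase phosphatases Dusp1, Dusp5, Dusp6 and Dusp10, the Sprouty genes Spry1, Spry2 and Spry4, the Sprouty-related genes Spred1 and Spred2, and the transcription factor gene Etv5. They were taken by gene symbol from a table of 17052 genes, and each symbol had 1 entry. All 10 were among the 11415 genes tested, which had at least 1 FPKM in at least 3 of 12 libraries. FPKM scales the fragments of a gene by its transcript length and by library size, so that levels can be compared between genes.

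The libraries were made from left ventricle mRNA of 12 C57BL/6 mice, each a separate animal, with 3 mice per group. TAC+pimobendan mice had transverse aortic constriction, a narrowing of the aortic arch by a clip that makes the left ventricle pump against a higher pressure, at 8 weeks of age, and were given pimobendan by mouth at 1 mg/kg/day for 4 weeks. TAC+control mice had the constriction without the drug. Sham+pimobendan mice had the operation without the clip and the same drug course, and Sham+control mice had the sham operation alone. All were sampled at 12 weeks of age, and what the control mice received in place of the drug is not given in the sources used here. Pimobendan is a heart failure drug that sensitizes cardiac troponin C to calcium and inhibits phosphodiesterase. The series is titled as a test of whether it limits pressure-overload hypertrophy through MAP kinases.

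The RAS, RAF, MEK and ERK cascade carries growth factor and stress signals to the nucleus, and in the heart it is switched on by pressure load. Active ERK induces its own inhibitors: dual-specificity phosphatases remove the activating phosphates from MAP kinases, Sprouty and Spred proteins act above them at the level of RAS and RAF, and Etv5 is an ETS factor whose transcription follows FGF and ERK signals. Messenger RNA of these genes is often used as a proxy for pathway output, but no phosphorylation or enzyme activity was measured here.

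Of the 10 genes, Etv5 was the 1 that passed the test in any comparison. It rose in TAC+pimobendan hearts over TAC+control hearts, by 0.83 ± 0.17 on the log2 scale of FPKM + 1 (SE; limma, Benjamini-Hochberg adjusted p = 0.0409 over all genes tested). In that comparison 3.27% of all tested genes passed, 3.15% as higher. In TAC+control against Sham+control hearts all 10 had negative log2 fold changes, but none passed. In that comparison 0% of all tested genes passed by limma, 8.33% had an unadjusted p under 0.05 and 65.1% had a negative value. None of the 10 passed in Sham+pimobendan against Sham+control hearts, where 0% of all genes passed and 4.54% had an unadjusted p under 0.05. None passed in TAC+pimobendan against Sham+pimobendan hearts, where 4.89% of all genes passed. A gene counts as passing at an adjusted p under 0.05.

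**Figure D1:**
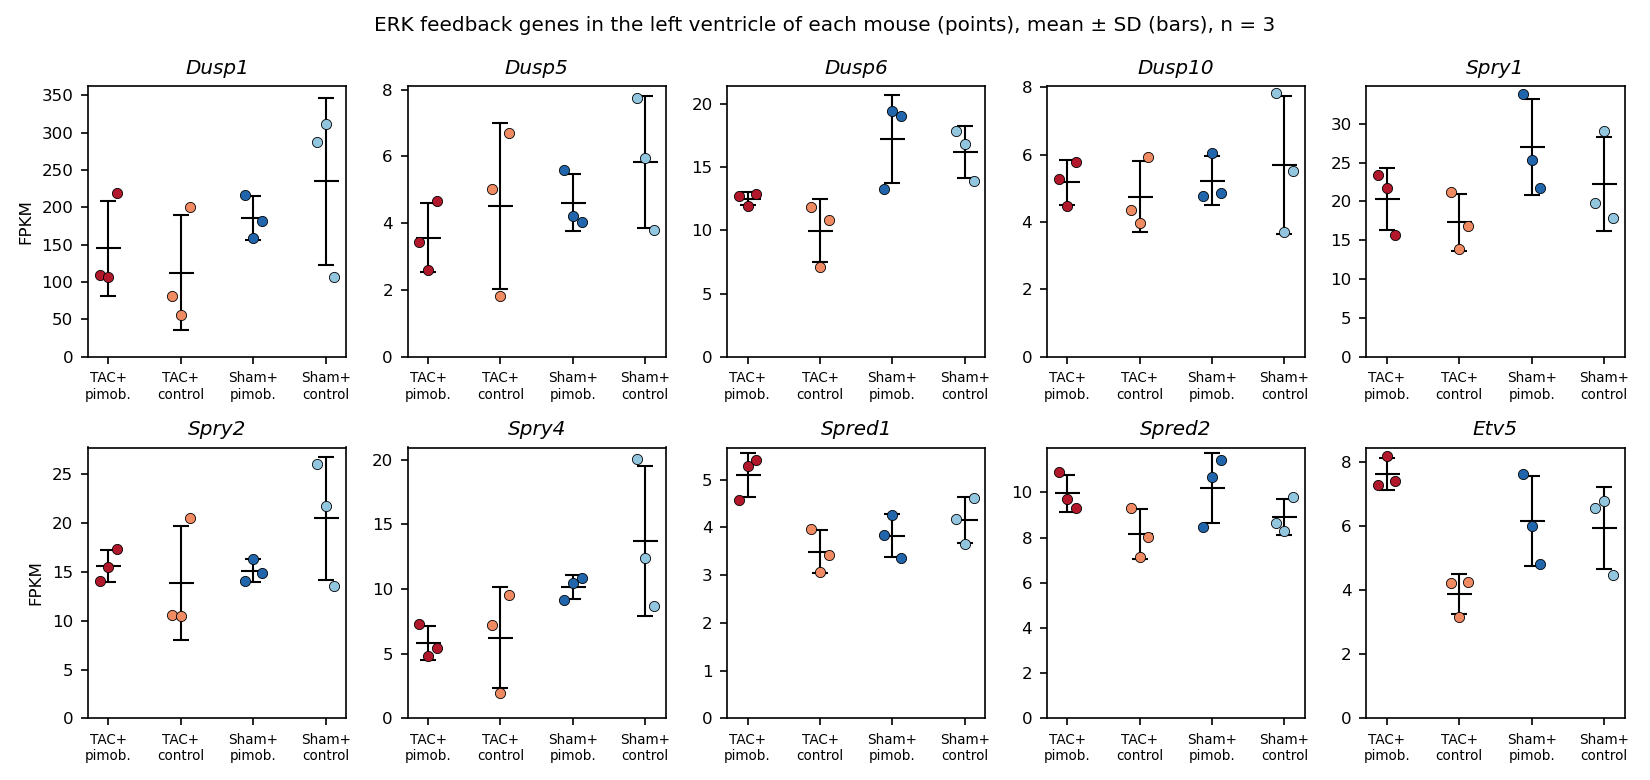
FPKM of the 10 feedback genes in each of the 12 mice (points) with the group mean and SD (bars, n = 3), by group, each panel on its own linear axis that starts at 0. The 3 TAC+pimobendan values of Etv5, 7.29 to 8.21 FPKM, lie above the 3 TAC+control values, 3.16 to 4.26 FPKM, and the TAC+control values of Spry4 and Dusp1 are widely spread.

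Averaged over the 12 libraries, Dusp1 was the most abundant of the 10 at 170 ± 80.9 FPKM (SD). Spry1 followed at 21.7 FPKM, Spry2 at 16.3 FPKM and Dusp6 at 14.0 FPKM. The other 6 averaged between 4.14 FPKM (Spred1) and 9.31 FPKM (Spred2). Spry4 varied most, with a 10.2-fold range between its highest and lowest library, and Spred2 least, with a 1.61-fold range.

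The promoters of Dusp1, Dusp5 and Etv5 are shown because Dusp1 had the widest swings in FPKM, Dusp5 carries the most motif matches beside Dusp1, and Etv5 is the gene that passed. They come from RefSeq (GRCm38.p6) and run from 250 bases before the gene start to 50 after it. RefSeq promoters were matched for 9 of the 10 genes, all but Spry4. For Etv5 a further promoter, chr16:22438319-22438618, was matched and is not shown. Capitals mark matches, on either strand, to the cAMP response element TGACGTCA, its shorter form TGACGT (which lies within the longer one), the ETS core CCGGAA, the AP-1 site TGANTCA or the CArG box bound by serum response factor.
Dusp1, chr17:26508423-26508722, minus strand: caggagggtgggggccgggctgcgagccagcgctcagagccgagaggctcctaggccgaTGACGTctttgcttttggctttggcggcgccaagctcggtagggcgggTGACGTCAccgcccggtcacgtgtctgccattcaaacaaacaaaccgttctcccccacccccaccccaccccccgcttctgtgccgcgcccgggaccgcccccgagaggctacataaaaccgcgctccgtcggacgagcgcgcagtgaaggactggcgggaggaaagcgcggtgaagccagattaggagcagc
Dusp5, chr19:53528895-53529194, plus strand: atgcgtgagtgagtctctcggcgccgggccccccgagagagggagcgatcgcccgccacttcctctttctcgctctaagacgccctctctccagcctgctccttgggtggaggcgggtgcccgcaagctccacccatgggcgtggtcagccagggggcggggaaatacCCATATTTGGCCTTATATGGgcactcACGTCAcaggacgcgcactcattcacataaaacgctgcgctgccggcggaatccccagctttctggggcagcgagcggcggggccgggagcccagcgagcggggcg
Etv5, chr16:22439521-22439820, minus strand: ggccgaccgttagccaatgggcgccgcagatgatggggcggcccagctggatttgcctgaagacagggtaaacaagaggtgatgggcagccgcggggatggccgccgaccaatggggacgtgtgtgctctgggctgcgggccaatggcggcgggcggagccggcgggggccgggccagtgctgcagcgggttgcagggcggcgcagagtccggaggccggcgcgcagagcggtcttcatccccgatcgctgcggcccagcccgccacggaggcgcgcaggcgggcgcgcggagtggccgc
The Dusp1 window held the full cAMP response element at position -143 from the start and TGACGT at -191. The Dusp5 window held CArG boxes at -82 and -72 and the reverse complement of TGACGT at -56. Of all 32851 RefSeq promoters of this length, 1.79% held TGACGTCA, 7.51% TGACGT, 14.9% CCGGAA, 7.81% TGANTCA and 1.63% a CArG box. Among the other matched genes, Spry2 had CCGGAA at 34 and Spred2 the reverse complement of TGACGT at -52. The windows of Etv5, Dusp6, Dusp10, Spry1 and Spred1 held none of these letters, which says nothing about binding of the factors.

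Dusp6 (chromosome 10, 99263231 to 99267489, plus strand, GRCm38) encodes a cytoplasmic phosphatase selective for ERK. Its 3 libraries had 12.7, 11.9 and 12.9 FPKM in TAC+pimobendan hearts, 11.9, 7.14 and 10.9 FPKM in TAC+control hearts, 13.3, 19.5 and 19.1 FPKM in Sham+pimobendan hearts and 17.9, 16.9 and 13.9 FPKM in Sham+control hearts. Every TAC+control library was below every Sham+control library, and every TAC+pimobendan library lay between those groups. For TAC+pimobendan below Sham+control no share over all tested genes was taken. TAC+control hearts averaged 9.96 ± 2.50 FPKM and Sham+control hearts 16.2 ± 2.06 FPKM (SD, n = 3 each), a log2 difference of -0.67 ± 0.18 (SE; limma adjusted p = 0.408). Groups did not overlap in this direction for 9.74% of all tested genes. TAC+pimobendan hearts averaged 12.5 ± 0.507 FPKM, 0.33 ± 0.18 above TAC+control on the log2 scale (limma adjusted p = 0.250), and 23.3% of all tested genes were higher without overlap in that comparison. That gap to TAC+control narrowed to 0.22 when the libraries were corrected for GC content. Against Sham+pimobendan hearts, at 17.3 ± 3.48 FPKM, the TAC+pimobendan level was lower in every library, with a log2 difference of -0.42 ± 0.18 (limma adjusted p = 0.180). Groups did not overlap in that direction for 9.35% of all tested genes.

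Dusp1 (chromosome 17, 26505591 to 26508472 in RefSeq) encodes a nuclear, stress-induced phosphatase that acts on p38, JNK and ERK. It had 109.8, 107 and 219 FPKM in TAC+pimobendan hearts, 81.5, 56.0 and 200.3 FPKM in TAC+control hearts, 217, 159 and 181 FPKM in Sham+pimobendan hearts and 287, 312 and 107 FPKM in Sham+control hearts. Replicate 3 stood apart in both control groups, high in TAC+control and low in Sham+control, so that these groups overlapped. TAC+control hearts averaged 113 ± 77.0 FPKM and Sham+control hearts 235 ± 112 FPKM (SD, n = 3 each), a log2 difference of -1.12 ± 0.46 (SE; limma adjusted p = 0.561). The 2 pimobendan groups lay between these means, at 145 ± 63.8 FPKM after TAC and 186 ± 29.3 FPKM after sham. TAC+pimobendan minus TAC+control was 0.49 ± 0.46 (limma adjusted p = 0.532), with overlapping groups. Among libraries of the same replicate number the TAC+pimobendan one was higher each time. The share of all tested genes with this order was not taken. With the replicate number as a block over the 6 TAC libraries the value was 0.49 ± 0.14 (limma adjusted p = 0.0901), and 361 genes passed. The labels name no pairing or batch, and this block was added after same-numbered libraries were seen to deviate together. In the fit with no block, TAC+pimobendan minus TAC+control was 0.098 without TAC+control replicate 2, 0.15 without TAC+pimobendan replicate 3 and 1.01 without TAC+control replicate 3.

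The same 2 libraries stood apart in immediate early genes, the fast transcriptional response to stimuli that includes Fos and Egr1. An immediate early score, the mean log2 difference of 20 such genes from the Sham+control mean, was -0.93, -1.23 and -0.16 in TAC+pimobendan libraries, -1.36, -1.68 and 0.39 in TAC+control, 0.012, -0.83 and -0.19 in Sham+pimobendan and 0.53, 0.68 and -1.21 in Sham+control. Dusp1 was not among the 20 genes, but it was high where the score was high within both control groups. With Sham+control and TAC+control replicate 3 both left out, a choice made after seeing the data and on genes that vary like Dusp1, TAC+control minus Sham+control was -2.13 for Dusp1 (limma adjusted p = 0.018) and -1.11 for Spry2 (adjusted p = 0.00675), and 46 genes passed. The part of the score in these differences was not tested.

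Dusp5, whose product is a nuclear phosphatase selective for ERK, was low throughout, between 1.81 and 7.75 FPKM over all libraries, and its groups overlapped in every comparison. Its TAC+pimobendan minus TAC+control value of -0.18 ± 0.32 was the only negative log2 value among the 10 in that comparison (limma adjusted p = 0.766). Dusp10, whose product prefers p38 and JNK, lay between 3.72 and 7.83 FPKM. Its log2 differences were between -0.19 and 0.11 in the 4 group comparisons, and none passed. The Dusp5 locus overlaps an annotated antisense gene. The deposited interval of Dusp1 runs from 26505591 to 26511395, past the RefSeq end at 26508472. It is listed on the strand opposite to its annotated one. Whether counting used strand is not given in the sources used here, so reads of overlapping genes on both strands cannot be told apart.

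**Figure D2:**
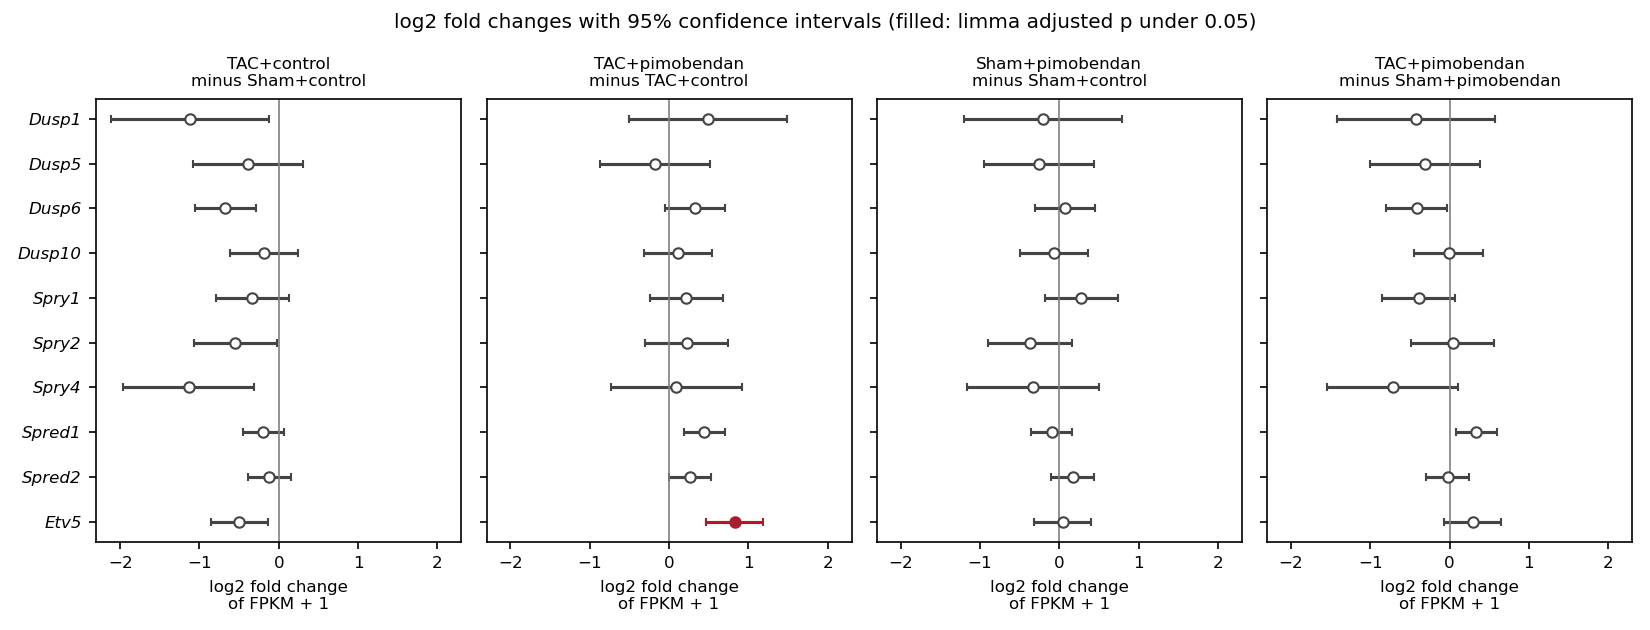
Log2 fold changes of FPKM + 1 for the 10 genes (points) with 95% confidence intervals (bars) in 4 comparisons, each named above its panel. The filled point marks Etv5 in TAC+pimobendan minus TAC+control, 0.83 with an interval of 0.47 to 1.19. In TAC+control minus Sham+control all points lie left of 0.

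Spry4, an inhibitor of growth factor signalling to RAS and RAF, had 7.32, 4.83 and 5.41 FPKM in TAC+pimobendan hearts, 7.22, 1.96 and 9.55 FPKM in TAC+control hearts, 9.13, 10.5 and 10.9 FPKM in Sham+pimobendan hearts and 20.1, 12.4 and 8.68 FPKM in Sham+control hearts. The lowest value was TAC+control replicate 2 and the highest Sham+control replicate 1. TAC+control and Sham+control overlapped through replicate 3 of each, while every TAC+pimobendan library was below every Sham+pimobendan library, as for 9.35% of all tested genes. TAC+control hearts averaged 6.24 ± 3.89 FPKM and Sham+control hearts 13.7 ± 5.79 FPKM (SD, n = 3 each), a log2 difference of -1.14 ± 0.38 (SE; limma adjusted p = 0.542). TAC+pimobendan hearts averaged 5.85 ± 1.30 FPKM and Sham+pimobendan hearts 10.2 ± 0.924 FPKM, a log2 difference of -0.72 ± 0.38 (limma adjusted p = 0.284). TAC+pimobendan minus TAC+control was 0.092 ± 0.38 on the log2 scale, with a 95% interval of -0.74 to 0.92, although the mean FPKM was lower in TAC+pimobendan than in TAC+control, so no direction is given. The log2 value turned to -0.0082 under median-ratio scaling and -0.072 under quantile normalization.

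Spry2, a Sprouty whose loss in mice disturbs inner ear and gut development, had 14.0, 15.5 and 17.3 FPKM in TAC+pimobendan hearts, 10.6, 10.5 and 20.6 FPKM in TAC+control hearts, 14.1, 16.4 and 14.9 FPKM in Sham+pimobendan hearts and 26.1, 21.7 and 13.6 FPKM in Sham+control hearts. As with Dusp1, replicate 3 was the highest TAC+control library and the lowest Sham+control library. The log2 difference between TAC+control and Sham+control was -0.55 ± 0.24 (SE; limma adjusted p = 0.585). Spry1, known from mice for its part in kidney development, lay between 13.9 and 33.8 FPKM, with overlapping groups in every comparison. Its Sham+pimobendan mean of 27.0 ± 6.20 FPKM was the highest and its TAC+control mean of 17.3 ± 3.67 FPKM the lowest (SD, n = 3 each). The deposited interval of Spry1 also holds 2 annotated transcripts awaiting experimental support, Gm42922 and Gm43820, so part of its value may be theirs.

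Spred1 (chromosome 2, 117121071 to 117182279) brings the RAS inactivator neurofibromin to the cell membrane. It had 4.58, 5.29 and 5.42 FPKM in TAC+pimobendan hearts, against 3.97, 3.07 and 3.43 FPKM in TAC+control hearts, and the groups did not overlap. This was also so for 23.3% of all tested genes in the same direction. The log2 difference was 0.44 ± 0.12 (SE; limma adjusted p = 0.0543), just short of the threshold. It passed with TPM in place of FPKM (adjusted p = 0.0378) and without TAC+pimobendan replicate 1 (adjusted p = 0.0341), and was 0.12 after correction for GC content (adjusted p = 0.593). In sham hearts the drug groups overlapped, with 3.85, 4.27 and 3.36 FPKM in Sham+pimobendan and 4.18, 3.65 and 4.61 FPKM in Sham+control. TAC+pimobendan was also above Sham+pimobendan in every library, as were 18.6% of all tested genes, with a log2 difference of 0.34 ± 0.12 (limma adjusted p = 0.111), which was 0.0025 after correction for GC content (adjusted p = 0.995).

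Spred2 was the steadiest of the 10. It averaged 9.97 ± 0.825 FPKM in TAC+pimobendan hearts, 8.16 ± 1.09 FPKM in TAC+control hearts, 10.2 ± 1.55 FPKM in Sham+pimobendan hearts and 8.91 ± 0.784 FPKM in Sham+control hearts (SD, n = 3 each). TAC+pimobendan minus TAC+control was 0.26 ± 0.12 (SE; limma adjusted p = 0.196), and the groups overlapped.

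Etv5 (chromosome 16, 22381310 to 22439641, minus strand) had 7.29, 8.21 and 7.43 FPKM in TAC+pimobendan hearts, 4.23, 3.16 and 4.26 FPKM in TAC+control hearts, 7.63, 6.00 and 4.83 FPKM in Sham+pimobendan hearts and 6.57, 6.78 and 4.48 FPKM in Sham+control hearts. Every TAC+control library was below every TAC+pimobendan library and below every Sham+control library. Of all tested genes, 23.3% were higher without overlap in TAC+pimobendan than in TAC+control, and 9.74% lower without overlap in TAC+control than in Sham+control. TAC+pimobendan hearts averaged 7.64 ± 0.496 FPKM and TAC+control hearts 3.88 ± 0.627 FPKM (SD, n = 3 each), a 1.97-fold ratio. The log2 difference of 0.83 has a 95% interval of 0.47 to 1.19. TAC+control minus Sham+control, with Sham+control hearts at 5.94 ± 1.27 FPKM, was -0.50 ± 0.17 (SE; limma adjusted p = 0.534). Both comparisons use the same 3 TAC+control libraries, so they are not independent.

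In sham hearts the drug difference in Etv5 was 0.042 ± 0.17 (SE; limma adjusted p = 0.983), with a 95% interval of -0.32 to 0.40. The interaction, which asks whether the drug difference differs between TAC and sham hearts, was 0.79 ± 0.23 for Etv5 (limma adjusted p = 0.104) and 0.54 ± 0.17 for Spred1 (adjusted p = 0.116). The Spred1 value was 0.12 after correction for GC content (adjusted p = 0.767). In the interaction 0% of all tested genes passed by limma and 20.3% had an unadjusted p under 0.05. TAC+pimobendan minus Sham+pimobendan was 0.29 ± 0.17 for Etv5 (adjusted p = 0.318), with overlapping groups.

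The Etv5 difference was positive under all 24 alternatives, between 0.66 and 0.97, and its adjusted p was under 0.05 in 10 of them (range 0.0195 to 0.176). The value stays at 0.83 by design with other filters, the block alone, a fit restricted to the compared groups or a sham library left out. In these only the adjusted p could change, so their sign adds nothing. The adjusted p exceeded 0.05 without TAC+pimobendan replicate 2 (0.159) or 3 (0.128), TAC+control replicate 1 (0.149) or 3 (0.102), Sham+pimobendan replicate 2 (0.0565) or Sham+control replicate 2 (0.0548). With the replicate number as a block it was 0.0788 over all 12 libraries and 0.0447 over the 6 TAC libraries. The libraries also differed in a GC trend, the rank correlation of a gene's GC content with its deviation from the mean of all libraries, taken across genes. It was -0.19, -0.51 and -0.52 in TAC+pimobendan libraries, 0.12, 0.0055 and 0.28 in TAC+control, 0.14, 0.36 and 0.52 in Sham+pimobendan and -0.34, 0.080 and 0.45 in Sham+control. The TAC+pimobendan libraries lay below the TAC+control and Sham+pimobendan ones and overlapped the Sham+control range. After correction for GC content the Etv5 difference was 0.78 (limma adjusted p = 0.0983), while no gene passed in this comparison. The median over all tested genes was 0.095 in this comparison and -0.0060 after median-ratio scaling, under which Etv5 had an adjusted p of 0.0627.

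Over the 10 genes, the median log2 fold change was 0.24 in TAC+pimobendan minus TAC+control, against 0.095 over all tested genes, with 9 of 10 positive where 66% of all genes were. The 9 include Spry4, whose mean FPKM went the other way. It was -0.44 in TAC+control minus Sham+control, against -0.057 over all tested genes. There, 5 of the 10 were lower at an unadjusted limma p under 0.05, where 6.83% of all genes were. They were Dusp6, Etv5, Spry4, Dusp1 and Spry2. In either direction, 2 of the 10 had such a p in TAC+pimobendan minus TAC+control, against 26.6% of all genes. It was 2 against 22.9% in TAC+pimobendan minus Sham+pimobendan, 2 against 20.3% in the interaction and 0 against 4.54% in Sham+pimobendan minus Sham+control. The set was chosen with earlier results of these data known. TAC+control replicate 2 was the lowest library for every gene but Dusp10. In Sham+pimobendan minus Sham+control the median was -0.079 and the values ran between -0.37 (Spry2) and 0.28 (Spry1). When groups were ordered by their means, neighbouring groups overlapped for 8 of the 10 genes. The exceptions were Dusp6 and Etv5. For Dusp6, TAC+pimobendan lay below Sham+control, a pair for which no share over all tested genes was taken. It also lay above TAC+control, a direction in which 23.3% of all tested genes did not overlap. For Etv5, TAC+control lay below Sham+control, as for 9.74% of all tested genes.

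**Figure D3:**
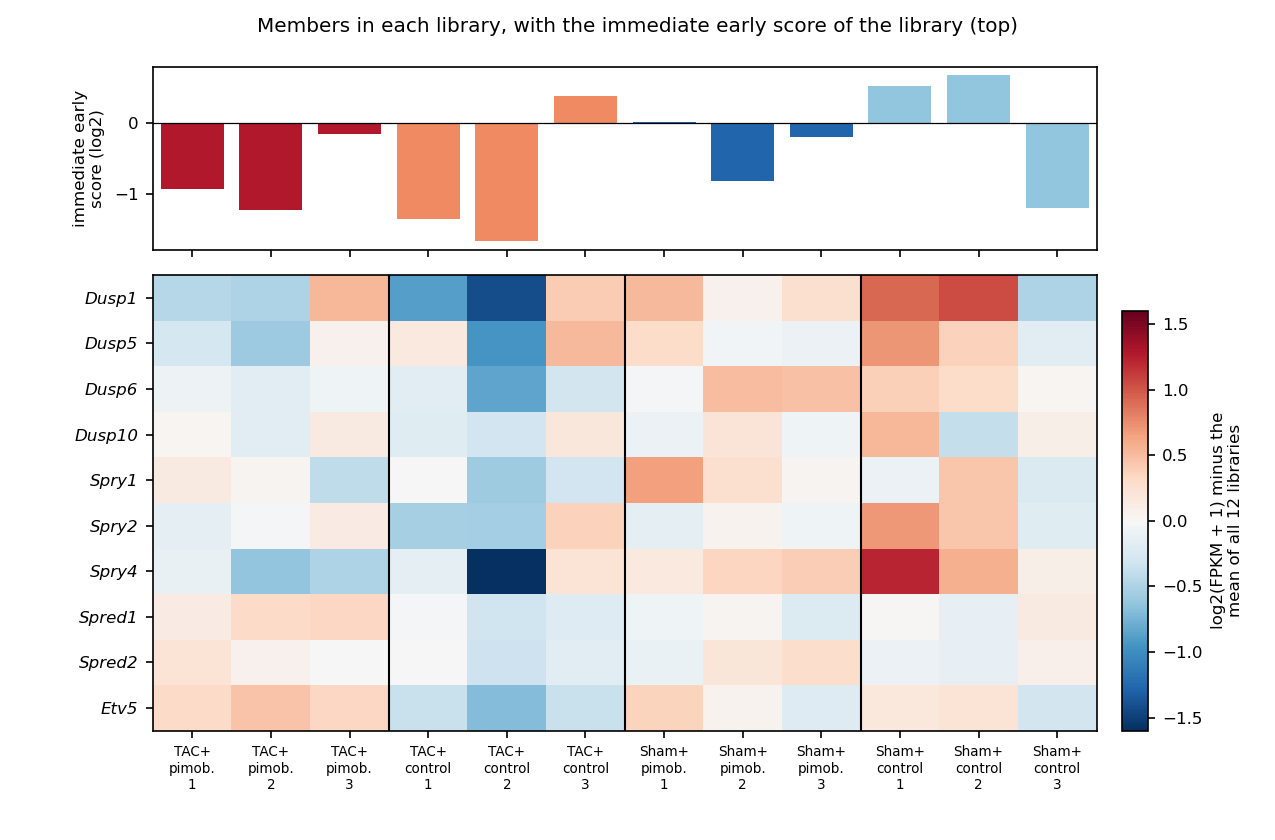
Bottom, log2(FPKM + 1) of each of the 10 genes minus its mean over all 12 libraries, by library (columns, numbered by replicate). Top, the immediate early score of each library on a log2 scale. TAC+control replicate 2 is the lowest of the 12 libraries for every gene but Dusp10. The Etv5 values are positive in all 3 TAC+pimobendan libraries and negative in all 3 TAC+control libraries.

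Across the 12 libraries, Spry4 was the gene of the set that followed Dusp6 most closely. On log2(FPKM + 1), Pearson's r was 0.84 (100000 permutations, p = 0.00107, adjusted over the 9 pairs with Dusp6 0.00963) and Spearman's rho 0.75 (permutation p = 0.00701, adjusted 0.0631). Without TAC+control replicate 2 and Sham+pimobendan replicate 2, the libraries farthest from the Dusp6 median, r was 0.71. On deviations from the group means r was 0.80. No other pair passed: r was 0.67 for Dusp1 (permutation p = 0.0150, adjusted 0.0676), 0.44 for Etv5 (permutation p = 0.155, adjusted 0.199) and lowest for Spred1 at 0.18 (permutation p = 0.585).

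**Figure D4:**
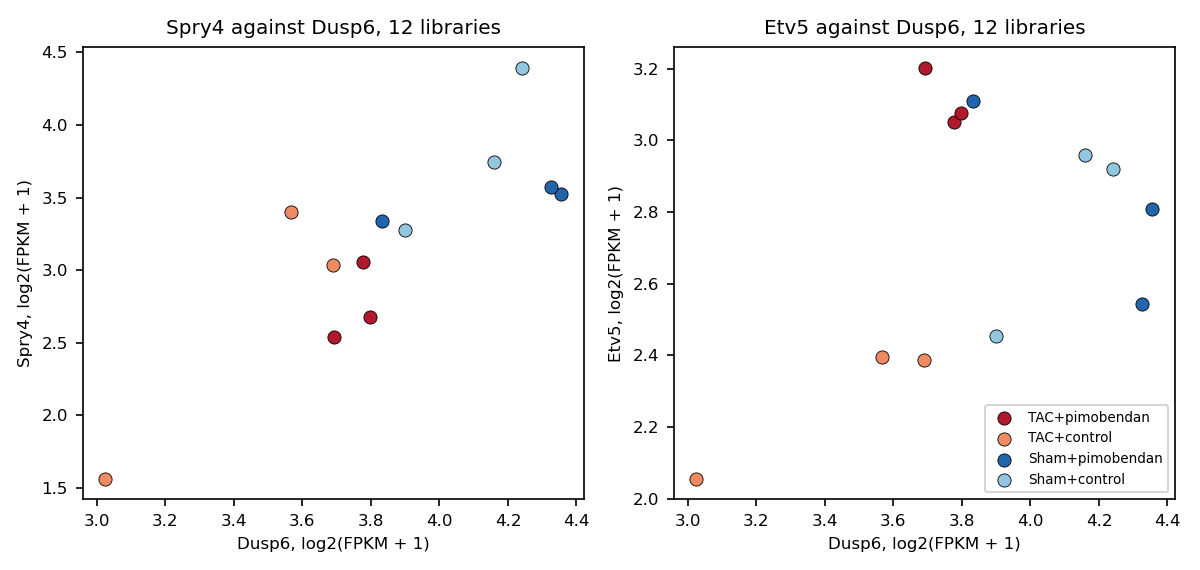
Spry4 (left) and Etv5 (right) against Dusp6 in each of 12 libraries, both axes in log2(FPKM + 1), coloured by group. Spry4 and Dusp6 fall along a line (r = 0.84), while the 3 TAC+pimobendan libraries have high Etv5 at middling Dusp6 (r = 0.44 over all libraries).

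Outside the set, the genes most like Dusp1 over the 12 libraries were Btg2 (r = 0.97), Klf2 (0.97) and Nfkbiz (0.96). Btg2 and Klf2 are themselves among the immediate early genes of the score. Dusp6 was followed most closely by Elmsan1 (0.94), Bcar3 (0.92) and Tspan14 (0.91), and Spry4 by Mob3a (0.92), Creb3l2 (0.92) and Gas1 (0.91). The nearest to Etv5 were Fam102b (0.94), Seh1l (0.93) and Fndc3b (0.93). These are the highest of all tested genes and are given as a description.

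Further genes of the pathway were read from lists. Of 12 other feedback genes tested, none passed in any comparison; in TAC+pimobendan minus TAC+control the smallest p was that of Dusp8, a JNK and p38 phosphatase, at -0.80 (limma adjusted p = 0.0548). Of 19 growth factor ligands and receptors none passed in any comparison. The smallest p in TAC+pimobendan minus TAC+control was that of Hbegf, an EGF receptor ligand, at -0.39 (limma adjusted p = 0.0749). Of 15 RAF, MEK and ERK kinases and targets, Rps6ka3, which encodes the ERK-activated kinase RSK2, rose in TAC+pimobendan over TAC+control hearts, by 0.70 (6.05 ± 1.24 and 3.29 ± 0.158 FPKM, SD, n = 3 each, adjusted p = 0.0482). It also rose over Sham+pimobendan hearts, by 0.70 (adjusted p = 0.0408), a comparison that shares the TAC+pimobendan libraries. After the GC correction no gene passed in either comparison.

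Among the adaptors and RAS regulators, those that rose in TAC+pimobendan over Sham+pimobendan hearts included Rasa1, a RAS inactivator, by 0.82 (limma adjusted p = 0.0352), and Sos1, a RAS activator, by 0.48 (adjusted p = 0.0447). None of the 13 tested passed in TAC+pimobendan over TAC+control, where Rasa1 had 0.74 (adjusted p = 0.0514). Of 13 p38 and JNK kinases none passed in any comparison. In TAC+pimobendan minus TAC+control the smallest p was that of Mapkapk2, a p38 target, at -0.21 (limma adjusted p = 0.0916). Of 20 immediate early genes none passed. In TAC+control minus Sham+control 19 of those 20 were negative, against 65.1% of all tested genes. Their median was -0.89, against -0.057 over all tested genes, with Zfp36, an mRNA decay factor, at -1.46 (limma adjusted p = 0.408). Replicate 3 had an immediate early score of 0.39 in TAC+control and -1.21 in Sham+control. In TAC+pimobendan minus TAC+control the smallest p was that of Klf6, at 0.72 (limma adjusted p = 0.0689).

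The labelled tissue was checked against markers of its cells. All 8 ventricular muscle markers were high, with Myl2 at 21354 FPKM. Of 5 atrial markers Myl7, Sln and Bmp10 averaged 0.642 FPKM or less and Myl4 averaged 2.00 FPKM. Nppa, a natriuretic peptide gene that ventricles also express under load, averaged 294 FPKM. Its mean was not higher after TAC without the drug, at 193 FPKM in TAC+control and 268 FPKM in Sham+control hearts. That log2 difference was -0.52 (limma adjusted p = 0.699). Nppa averaged 373 FPKM in TAC+pimobendan and 343 FPKM in Sham+pimobendan hearts. None of the 6 thymus and T cell genes in the table reached a mean of 1 FPKM, and the summed level was at most 1.36 FPKM in any library. Adipocyte markers summed to at most 1.87 FPKM. Feedback genes are expressed in many cell types of the heart, and in whole ventricle fewer cells of a type and less RNA per cell cannot be told apart. The 12 endothelial markers summed to 434 to 485 FPKM in TAC+pimobendan hearts, 374 to 469 FPKM in TAC+control hearts, 455 to 634 FPKM in Sham+pimobendan hearts and 493 to 590.4 FPKM in Sham+control hearts. In TAC+control minus Sham+control all 12 were negative, against 65.1% of all tested genes, with a median of -0.24, and none passed. In TAC+pimobendan minus Sham+pimobendan 7 of the 12 were negative, against 51% of all tested genes, with a median of -0.18. Of the 12, 2 passed as lower, against 0.245% of all tested genes. The 7 erythroid genes summed to 1154 to 2295 FPKM in TAC+pimobendan hearts, against 4213 to 6720 FPKM in TAC+control hearts. The median log2 difference was -1.27, and 7 of 7 were negative, against 34% of all tested genes. Of the 7, 1 passed as lower, against 0.114% of all tested genes. In Sham+pimobendan minus Sham+control 6 of the 7 were also negative, against 46.3% of all tested genes, with a median of -1.08 and none passing. In TAC+control minus Sham+control 7 of 7 were positive, against 34.9% of all tested genes, with a median of 1.03 and none passing. In TAC+control minus Sham+control all 8 smooth muscle and pericyte markers were negative, against 65.1% of all tested genes. Their median was -0.23 and none passed. In TAC+pimobendan minus Sham+pimobendan 4 of these 8 were negative, against 51% of all tested genes, and 1 passed as lower, against 0.245%. The sums of these 8 were 247 to 275 FPKM in TAC+control hearts and 260.3 to 348 FPKM in Sham+control hearts. In TAC+pimobendan hearts they were 284 to 291 FPKM. In TAC+pimobendan minus TAC+control 7 of these 8 were positive, against 66% of all tested genes, with a median of 0.17 and none passing. The 7 fibroblast markers summed to 424 to 489 FPKM in TAC+pimobendan and 336 to 422 FPKM in TAC+control hearts. In that comparison 5 of the 7 were positive, with a median of 0.15 and none passing. In TAC+pimobendan minus TAC+control all 8 macrophage markers were positive, against 66% of all tested genes, with a median of 0.31 and none passing. In Sham+pimobendan minus Sham+control 7 of the 8 were positive, against 53.7% of all tested genes, with a median of 0.20 and none passing. Their sums were 299 to 397 FPKM in TAC+pimobendan hearts and 278 to 294 FPKM in TAC+control hearts. The 8 ventricular muscle markers summed to 59854 to 68081 FPKM in TAC+pimobendan hearts and 69723 to 74221 FPKM in TAC+control hearts. In TAC+pimobendan minus TAC+control 5 of the 8 were negative, against 34% of all tested genes, with a median of -0.076. Of the 8, 1 passed as higher and 1 as lower, against 3.15% and 0.114% of all tested genes. After the GC correction no gene passed in this comparison or in TAC+pimobendan minus Sham+pimobendan. The part of these marker levels in the differences of the feedback genes was not tested.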

How the data were processed

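Libraries were made by poly(A) selection and random priming and read on a DNA nanoball sequencer, per the labels' protocols. The authors deposited FPKM and TPM values for each gene and mouse, with 2 decimals, on GRCm38. RSEM 1.2.12, Bowtie2 2.2.5, HISAT2 2.0.4 and DESeq2 1.4.5 appear in the submitters' processing notes, without their roles. Summed over genes, deposited TPM was 1.55 to 1.69 times FPKM in each library. The table holds no counts, so depth is unknown and no counting interval is given. FPKM summed to 593203 to 643478 per library, and 10809 to 11292 genes reached 1 FPKM.

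Samples were grouped by their labels. Log2(FPKM + 1) was fitted with limma 3.58.1 (R 4.3.3, trend on mean expression) over 12 libraries and 4 groups with 8 residual degrees of freedom, two-sided, with Benjamini-Hochberg adjustment over 11415 genes. The members and gene lists were chosen with earlier results of these data known. Named genes were the 10 members, in each further list those past the threshold (up to 3 of smallest p) or else the 1 of smallest p, and for Dusp1, Dusp6, Spry4 and Etv5 the 3 genes of highest Pearson's r. Replicate numbers are those of the biological replicates in the sample titles, which name no pairing or batch. Same-numbered TAC+pimobendan and TAC+control libraries deviated together from their group means (r across genes 0.154, 0.208 and 0.101), so the block was added for those groups; in the other group pairs at least 1 number had r under 0.1. Coordinates, overlaps, GC content (11334 of the tested genes, longest transcript) and promoters came from GENCODE and RefSeq annotation of GRCm38. The GC correction subtracts a loess trend (span 0.5) from each library. Alternatives were median-ratio scaling, quantile normalization, TPM, other filters, a pseudocount of 0.1, a fit restricted to the compared groups, the block, the GC correction and leaving out libraries. The fit was tested on simulated data. A listed gene that the naming rule picks is not reported here. Permutation tests used Python 3.11.15 with scipy 1.17.1.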

Additional observations from a re-analysis of the deposited data

How the results depend on the processing

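Library depth is unknown, and with 3 mice per group small differences in the low genes cannot be resolved. Of the members' values, 517 kept direction and side of the threshold and 22 changed sign in alternatives other than leaving out 1 library, against 562 and 31 on leaving out 1 library. Many of these values could not change sign. Other filters, the block alone, a restricted fit, or leaving out a library outside the groups compared keep a log2 value as it is. The counts of kept directions are therefore no measure of stability. The cause of the sign changes was not tested.

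In TAC+pimobendan minus TAC+control, 373 genes passed, and 0 after median-ratio scaling, quantile normalization, no filter, the GC correction with or without the replicate block, a fit of only the groups compared, or without both control groups' replicate 3. There were 1170 on TPM, 1 with the replicate block over all 12 libraries and 361 with the block in these groups alone; leaving out 1 library gave 0 to 1190. Of the members, 1 passed, 2 on TPM, and 0 to 2 on leaving out 1 library. It was 0 in the alternatives that gave 0 genes and with the replicate block over all libraries (Etv5 adjusted p = 0.0788), and 0.176 was the Etv5 value with block and GC correction together. In TAC+control minus Sham+control 0 genes passed, 2 in a fit of only these groups, 0 to 4 on leaving out 1 library, and 46 with 2 members without both replicate 3. In TAC+pimobendan minus Sham+pimobendan 558 passed, 356 after median-ratio scaling, 298 after quantile normalization, 734 on TPM, 1 without both replicate 3, 0 with no filter, only these groups, the replicate block, the GC correction or both, and 0 to 1225 on leaving out 1 library. For the interaction it was 0, and 0 to 773 on leaving out 1 library (773 without TAC+pimobendan replicate 1). In Sham+pimobendan minus Sham+control it was 0 in all alternatives run.

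Log2 differences changed sign as follows. In TAC+pimobendan minus TAC+control, Spry4 was -0.0082 after median-ratio scaling and -0.072 after quantile normalization, Dusp10 was -0.069 after quantile normalization and -0.013 with the GC correction (also with the block), and Dusp5 was 0.13 without both replicate 3. In Sham+pimobendan minus Sham+control, Dusp6 was -0.027 and Etv5 -0.12 without both replicate 3. In TAC+pimobendan minus Sham+pimobendan, Dusp10 was 0.033 and Spred2 0.022 on TPM, and Spred2 was 0.018 and Spry2 -0.081 with the GC correction (also with the block). In the interaction, Dusp5 was -0.010 and Spred2 -0.0051 after median-ratio scaling, -0.12 and -0.032 after quantile normalization, and Spry1 was 0.034 on TPM, 0.0080 with the GC correction (also with the block) and 0.069 without both replicate 3.

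On leaving out 1 library, ranges that crossed 0 were: in TAC+pimobendan minus TAC+control, -0.60 to 0.13 for Dusp5 and -0.46 to 0.46 for Spry4. In TAC+control minus Sham+control, they were -0.69 to 0.038 for Dusp5 and -0.41 to 0.037 for Dusp10. In Sham+pimobendan minus Sham+control, they were -0.70 to 0.070 for Dusp1, -0.027 to 0.24 for Dusp6, -0.29 to 0.16 for Dusp10 and -0.12 to 0.18 for Etv5. In TAC+pimobendan minus Sham+pimobendan, they were -0.080 to 0.084 for Dusp10, -0.033 to 0.11 for Spry2 and -0.14 to 0.056 for Spred2. In the interaction, they were -0.35 to 0.38 for Dusp5, -0.047 to 0.40 for Dusp10, -0.26 to 0.11 for Spry1, -0.13 to 0.79 for Spry4 and -0.022 to 0.18 for Spred2. Over all groups the same-numbered libraries did not deviate together (r between -0.44 and 0.253, 4 of 18 pairs over 0.1), and the block changed no other call of a member.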
